A study of Mus musculus with 8 samples.

Results

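The genes described here are 10 cytokine genes and receptors of acute inflammation, chosen by name: the interleukin-1 genes Il1a and Il1b, their antagonist Il1rn and receptors Il1r1 and Il1r2, the tumour necrosis factor gene Tnf, the interleukins Il6 and Il10, and the chemokines Cxcl1 and Cxcl2. All 10 were found among the 23354 gene symbols of the expression tables. Of these, 8 had at least 1 FPKM (fragments per kilobase of transcript, scaled to the sequenced fragments of the library) in at least 2 libraries and were among the 10934 genes tested. Il6 reached 1 FPKM in 1 library and Il1r2 in 0, so both are given mainly as levels. The rule that names the 10 genes uses no measured value, but it was written with earlier results of these data known.

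Interleukin-1 alpha and beta both signal through the type 1 receptor encoded by Il1r1, which drives NF-kappaB. The antagonist encoded by Il1rn occupies that receptor without signalling, and the decoy receptor encoded by Il1r2 binds the ligands without signalling. Interleukin-1 beta is made as an inactive precursor that caspase-1 cleaves, a step that transcript levels do not show. In macrophages the ligand genes, Tnf, Il6, Cxcl1 and Cxcl2 are classical targets of Toll-like receptors and NF-kappaB, Il10 encodes a cytokine that restrains them, and interleukin-4 induces the alternative state in which antagonists such as Il1rn are known to be favoured.

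Macrophages were grown for 7 days from bone marrow of 8-week-old C57BL/6J mice in medium conditioned by L929 fibroblasts, a source of macrophage colony-stimulating factor, and their RNA was sequenced in 8 libraries. There were 4 groups of 2 libraries, numbered replicate 1 and replicate 2 in each. In Ern1f/fLyz2-Cre IL-4 and Ern1f/fLyz2-Cre control, both alleles of Ern1, which encodes the endoplasmic reticulum stress sensor IRE1alpha, were floxed and Cre recombinase was expressed from Lyz2, a gene active in myeloid cells. In Ern1f/f IL-4 and Ern1f/f control the same floxed alleles were present without Cre. Both IL-4 groups received 20 ng/ml of IL-4 for 24 hours and the control groups none. The labels do not say how many mice stand behind a library or what the replicate number marks, so the spread between replicates may be partly technical.

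Groups follow the sample titles. The genotype field of the labels contradicts the title in 4 of the 8 libraries, since it gives Ern1f/fLyz2-Cre for each library numbered 2 and Ern1f/f for each library numbered 1. Ern1 measured 7.43 and 11 FPKM in Ern1f/fLyz2-Cre IL-4, 14.3 and 12.7 in Ern1f/fLyz2-Cre control, 10.2 and 9.11 in Ern1f/f IL-4 and 11.5 and 9.55 in Ern1f/f control. A value over the whole gene does not show whether the floxed part was removed, and these values do not separate the titled genotypes. Lyz2, the gene from which Cre is expressed, measured 5780 and 1572 FPKM in Ern1f/fLyz2-Cre IL-4, 10949 and 2171 in Ern1f/fLyz2-Cre control, 8901 and 11961 in Ern1f/f IL-4 and 18114 and 17415 in Ern1f/f control. By title it was lower in Ern1f/fLyz2-Cre in 4 of 4 pairs, as were 4.49% of all genes tested, and by the genotype field in 3 of 4. All 12 macrophage markers in the tables reached 1 FPKM in a library. The deposited intervals imply 21500000 to 37900000 fragments per library, with Ern1f/fLyz2-Cre control replicate 2 lowest.

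In the mm10 build Il1a lies at chr2:129299610-129309972 and Il1b at chr2:129364580-129371120, both on the minus strand, with Il1rn at chr2:24336860-24351491 on the plus strand. Il1r1 (chr1:40225080-40316177), Il1r2 (chr1:40084768-40125226) and Il10 (chr1:131019845-131024970) lie on the plus strand of chromosome 1. Cxcl1 (chr5:90891245-90893115) and Cxcl2 (chr5:90903899-90905938) are near neighbours on the plus strand, Il6 (chr5:30013161-30019968) lies on the same chromosome, and Tnf is at chr17:35199391-35201996 on the minus strand. Il1b overlaps the antisense gene Il1bos, Il1a overlaps Gm14023, Il1r1 overlaps Gm38070 on its own strand and Il1r2 overlaps the antisense gene Gm16894 in GENCODE M21. Whether the libraries kept strand is not given in the sources used here, so reads from such partners cannot be told apart. Of the distinct stretches of 50 bases in Cxcl2 transcripts, 5.84% also occur in Cxcl3, so a small part of its level may be shared. No such stretch was shared for Cxcl1, Il1a, Il1b, Tnf, Il6 or Il10.

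Promoter windows from RefSeq (GRCm38.p6) were present for 9 of the 10 genes, all but Il10. Shown here are the 150 bases before the start site of the 3 genes on chromosome 5 that were highest in the same library as Il1b, and of Il1b itself, 5′ to 3′ on the strand of the gene. Capitals mark a loose form of the NF-kappaB site (GGG, any 5 bases, CC) on either strand in the first 3, and TATAAA in Il1b.
Cxcl1, chr5:90891095-90891244 (+): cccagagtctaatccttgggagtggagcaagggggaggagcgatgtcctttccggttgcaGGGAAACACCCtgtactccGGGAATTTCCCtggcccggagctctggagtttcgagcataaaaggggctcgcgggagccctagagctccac
Cxcl2, chr5:90903749-90903898 (+): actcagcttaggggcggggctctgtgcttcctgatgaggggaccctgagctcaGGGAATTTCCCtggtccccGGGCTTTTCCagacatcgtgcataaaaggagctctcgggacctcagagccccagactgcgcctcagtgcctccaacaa
Il6, chr5:30012964-30013113 (+): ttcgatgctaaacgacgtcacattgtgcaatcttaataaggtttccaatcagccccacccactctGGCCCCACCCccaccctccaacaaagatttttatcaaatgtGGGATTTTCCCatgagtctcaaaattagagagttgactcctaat
Il1b, chr2:129371140-129371289 (−): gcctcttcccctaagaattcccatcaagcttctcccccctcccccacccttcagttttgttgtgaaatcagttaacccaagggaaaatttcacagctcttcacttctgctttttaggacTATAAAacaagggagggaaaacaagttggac
Cxcl1 and Cxcl2 hold the same 10 letters gggaatttcc, beginning 71 bases before the start in Cxcl1 and 97 bases before it in Cxcl2. Searched on both strands of the whole windows of 300 bases, the loose NF-kappaB form occurred in 6 of the 9 genes (Cxcl1, Cxcl2, Il1r1, Il1rn, Il6 and Tnf) and in 50.8% of all 32851 windows. TATAAA occurred in Il1a, Il1b, Il1rn and Tnf, against 13.6% of all windows. TGANTCA, the AP-1 form, occurred in Il1a, Il1rn and Il6 (7.81% of all windows), and TTGCNNAA, a C/EBP-type form, in Il1r1 and Il6 (10.8%). TTC and GAA parted by any 4 bases, the spacing of STAT6 sites, occurred in Il1rn alone (6.95%). These matches describe letters, and a missing match says nothing of the factor.

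The ligand gene Il1b, the main secreted interleukin-1 of macrophages, measured 2.09 and 2.37 FPKM in Ern1f/fLyz2-Cre IL-4, 58.7 and 3.34 in Ern1f/fLyz2-Cre control, 7.30 and 5.04 in Ern1f/f IL-4 and 6.63 and 5.06 in Ern1f/f control (replicates 1 and 2 in this order, here and in the sentences that follow). A single library, Ern1f/fLyz2-Cre control replicate 1, stood far above the other 7, which lay between 2.09 and 7.30 FPKM. The authors' interval for that value ran from 56.3 to 61.0 FPKM, and that of its replicate from 2.68 to 4.0, so the gap between the 2 control libraries exceeded counting error. The group mean of 31.0 ± 39.1 FPKM (SD, n = 2) therefore describes neither library. Both Ern1f/fLyz2-Cre IL-4 libraries were lower than all other libraries, an order whose share over all genes was not counted. The interval of the second, 1.84 to 2.89 FPKM, overlapped that of Ern1f/fLyz2-Cre control replicate 2.

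Il1a, the membrane-associated ligand, measured 1.62 and 1.05 FPKM in Ern1f/fLyz2-Cre IL-4, 15.6 and 0.618 in Ern1f/fLyz2-Cre control, 3.34 and 1.11 in Ern1f/f IL-4 and 2.30 and 0.564 in Ern1f/f control. The same library was highest, 4.67-fold above the next, and all 4 libraries numbered 1 exceeded all 4 numbered 2, as for 22.4% of all genes tested. Among the libraries numbered 2, both IL-4 libraries were above both controls, an order whose share over all genes was not counted. In Ern1f/fLyz2-Cre the deposited intervals of these overlapped, at 0.766 to 1.33 FPKM with IL-4 and 0.393 to 0.844 in control. In Ern1f/f they did not, at 0.831 to 1.39 with IL-4 and 0.373 to 0.755 in control. Il1b exceeded Il1a in each of the 8 libraries, by 1.29-fold in Ern1f/fLyz2-Cre IL-4 replicate 1 to 8.96-fold in Ern1f/f control replicate 2, as levels per transcript length.

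**Figure D1:**
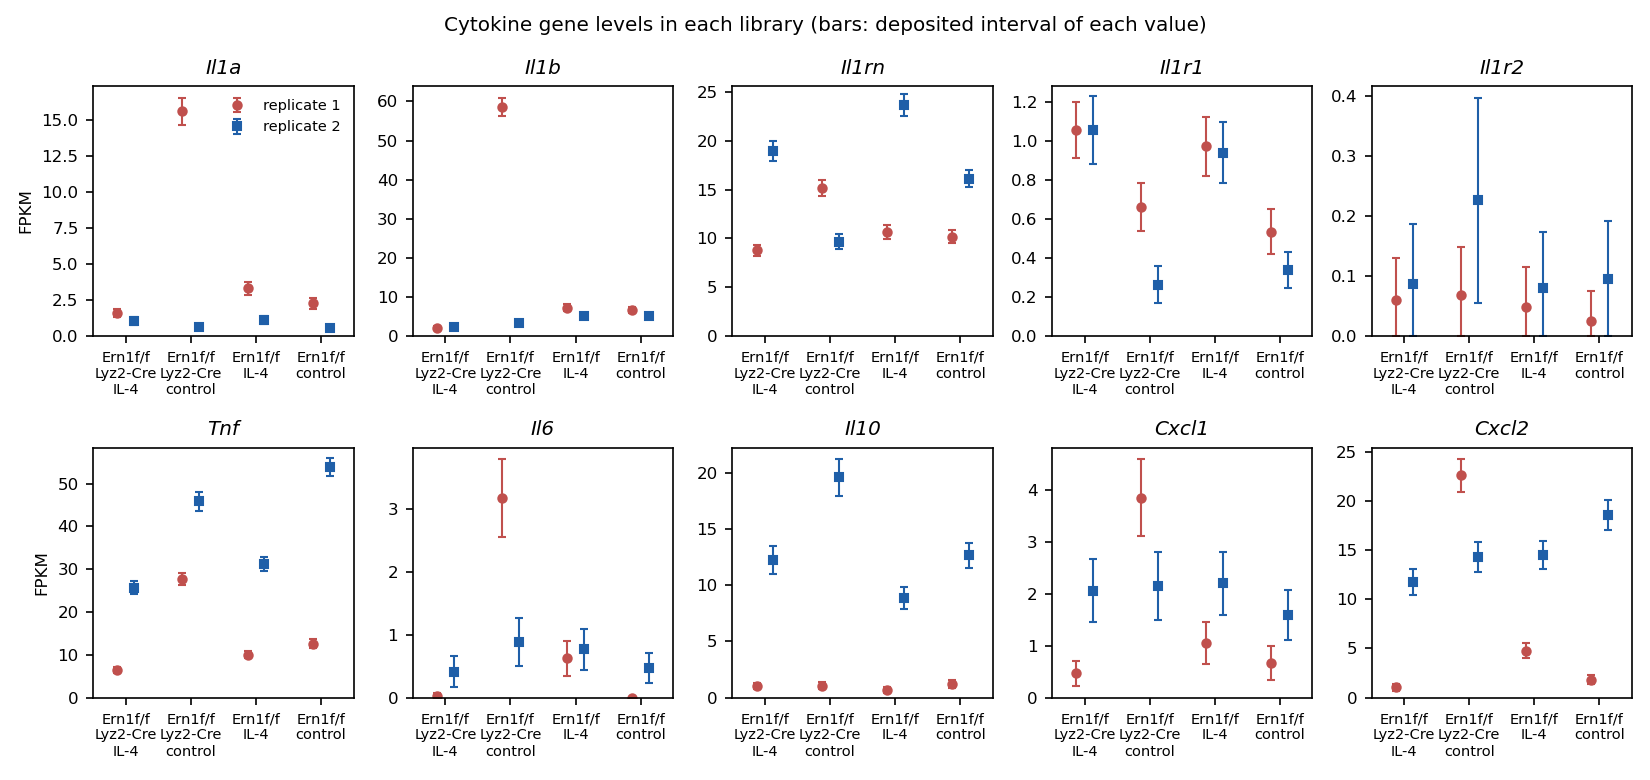
Each panel shows one gene, with FPKM on the y axis and the 4 groups on the x axis, the 2 points of a group are its replicates 1 and 2, and bars are the deposited intervals, which cover counting error only. Il1a, Il1b, Il6, Cxcl1 and Cxcl2 each have their highest point in Ern1f/fLyz2-Cre control replicate 1 (58.7 FPKM for Il1b), while Il10 separates by replicate number.

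The antagonist gene Il1rn had the smallest ratio of highest to lowest library among the 10 genes. It measured 8.78 and 19.0 FPKM in Ern1f/fLyz2-Cre IL-4, 15.2 and 9.66 in Ern1f/fLyz2-Cre control, 10.6 and 23.7 in Ern1f/f IL-4 and 10.2 and 16.1 in Ern1f/f control, a 2.69-fold range over the 8 libraries. Group ranges overlapped throughout, and the means ran from 17.1 ± 9.21 FPKM in Ern1f/f IL-4 to 12.4 ± 3.89 in Ern1f/fLyz2-Cre control (SD, n = 2 each). IL-4 libraries numbered 2 were above their controls, 1.97-fold in Ern1f/fLyz2-Cre and 1.47-fold in Ern1f/f. Of those numbered 1, the Ern1f/fLyz2-Cre library was below its control, at 0.579-fold, and the Ern1f/f library close to it, at 1.04-fold.

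Il1r1, the signalling receptor, was low but ordered by treatment. It measured 1.05 and 1.05 FPKM in Ern1f/fLyz2-Cre IL-4, 0.662 and 0.263 in Ern1f/fLyz2-Cre control, 0.972 and 0.940 in Ern1f/f IL-4 and 0.535 and 0.338 in Ern1f/f control. All 4 IL-4 libraries lay above all 4 controls, by 1.59-fold and 4.01-fold within the replicate numbers of Ern1f/fLyz2-Cre and by 1.82-fold and 2.78-fold within those of Ern1f/f. Such a separation towards higher values in IL-4 was found for 6.98% of all genes tested. No gene of the 8 separated towards lower values in IL-4, as 7.23% of all genes did. Il1r1 reached 1 FPKM only in the Ern1f/fLyz2-Cre IL-4 libraries and passed the filter through them, so its place among the genes tested is not independent of its height there. The decoy receptor gene Il1r2 measured 0.0600 and 0.0864 FPKM in Ern1f/fLyz2-Cre IL-4, 0.0686 and 0.226 in Ern1f/fLyz2-Cre control, 0.0477 and 0.0804 in Ern1f/f IL-4 and 0.0249 and 0.0958 in Ern1f/f control. These values correspond to 1 to 7 fragments per library, too few to order the groups.

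Tnf, the cytokine that signals through the TNF receptors, had the highest mean of the 10 genes in every group. It measured 6.47 and 25.7 FPKM in Ern1f/fLyz2-Cre IL-4, 27.8 and 45.8 in Ern1f/fLyz2-Cre control, 10.04 and 31.3 in Ern1f/f IL-4 and 12.6 and 53.9 in Ern1f/f control. Each IL-4 library was lower than the control of its genotype and number, as for 23.5% of all genes tested. Each library numbered 2 was higher than its counterpart numbered 1, as for 16.2% of all genes tested. The IL-4 to control ratio was 0.233 and 0.560 in Ern1f/fLyz2-Cre and 0.794 and 0.580 in Ern1f/f. By group mean the order was 36.8 ± 12.8 in Ern1f/fLyz2-Cre control, 33.3 ± 29.2 in Ern1f/f control, 20.7 ± 15.0 in Ern1f/f IL-4 and 16.1 ± 13.6 in Ern1f/fLyz2-Cre IL-4 (SD, n = 2 each), and neighbours in this order overlapped.

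Il6, the acute-phase cytokine, was near the detection limit in most libraries. It measured 0.0262 and 0.412 FPKM in Ern1f/fLyz2-Cre IL-4, 3.18 and 0.881 in Ern1f/fLyz2-Cre control and 0.626 and 0.767 in Ern1f/f IL-4. In Ern1f/f control replicate 1 it was listed at 0, and in replicate 2 at 0.467 FPKM. The highest value, in Ern1f/fLyz2-Cre control replicate 1, corresponds to 106 fragments and the others to 22 fragments or fewer.

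Il10, the cytokine that limits inflammatory gene expression, measured 1.02 and 12.3 FPKM in Ern1f/fLyz2-Cre IL-4, 1.07 and 19.6 in Ern1f/fLyz2-Cre control, 0.718 and 8.88 in Ern1f/f IL-4 and 1.19 and 12.7 in Ern1f/f control. The libraries numbered 1 held 1.19 FPKM or less and those numbered 2 held 8.88 or more, so the libraries parted by replicate number in every group, as 9.33% of all genes did towards higher values in replicate 2. Within each number and genotype the IL-4 library was the lower one, as for 23.5% of all genes tested. It stood at 0.952 and 0.625 of control in Ern1f/fLyz2-Cre and 0.604 and 0.700 in Ern1f/f. The pair at 0.952 rests on 49 fragments with IL-4 and 45 in control, and its counting intervals overlap. Ern1f/fLyz2-Cre control replicate 1, the library with the most Il1b, was not high in Il10.

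Cxcl2, a neutrophil-attracting chemokine, measured 1.05 and 11.7 FPKM in Ern1f/fLyz2-Cre IL-4, 22.6 and 14.3 in Ern1f/fLyz2-Cre control, 4.78 and 14.5 in Ern1f/f IL-4 and 1.84 and 18.6 in Ern1f/f control. The libraries numbered 2 were close to one another, whereas those numbered 1 spanned 21.5-fold. Cxcl1, its close relative and neighbour, measured 0.471 and 2.06 FPKM in Ern1f/fLyz2-Cre IL-4, 3.86 and 2.15 in Ern1f/fLyz2-Cre control, 1.05 and 2.21 in Ern1f/f IL-4 and 0.668 and 1.59 in Ern1f/f control. Both chemokine genes had the same order of libraries within number 1: Ern1f/fLyz2-Cre control highest, then Ern1f/f IL-4, Ern1f/f control and Ern1f/fLyz2-Cre IL-4. Cxcl2 exceeded Cxcl1 in each library, by 2.23-fold to 11.7-fold.

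Ern1f/fLyz2-Cre control replicate 1 carried most of the large differences. It stood at least 2-fold above each of the other 3 libraries of its number for 5 of the 8 tested genes, against 1.14% of all genes tested. These were Il1b (8.03-fold over the next library), Cxcl2 (4.73-fold), Il1a (4.67-fold), Cxcl1 (3.67-fold) and Tnf (2.20-fold). Il6, outside the test, was 5.08-fold over the next. Il1rn reached 1.43-fold, and Il10 and Il1r1 were not highest there. Set against all other 7 libraries the 2-fold margin held for Il1a and Il1b, against 0.851% of all genes. No other library stood 2-fold above the rest of its number for any of the 8 tested genes. Ern1f/fLyz2-Cre IL-4 replicate 1 had less than 0.5 of the Il1b level of each other library of its number (0.284% of all genes tested).

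**Figure D2:**
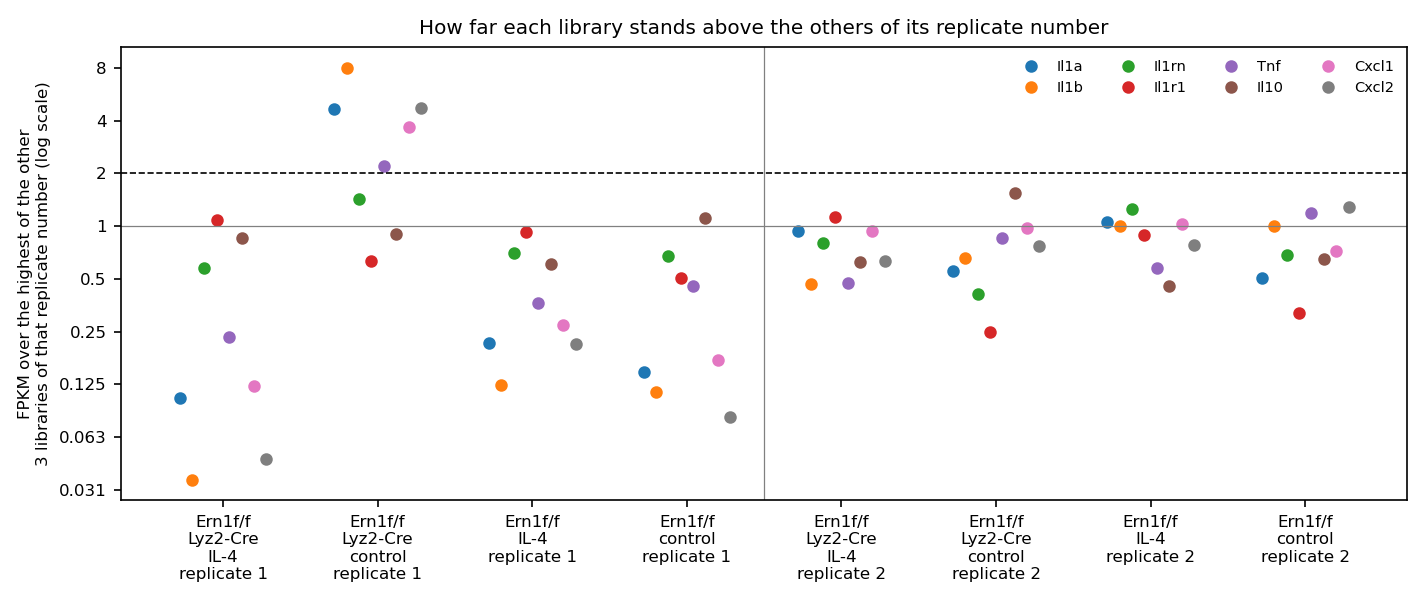
The y axis gives, on a log scale, the FPKM of a library divided by the highest FPKM among the other 3 libraries of its replicate number, and colours are the 8 tested genes. Ern1f/fLyz2-Cre control replicate 1 has 5 genes above the dashed line at 2, up to 8.03 for Il1b, and no other library has a gene above it.

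The same library was also high in genes outside the 10. Ptgs2, the inducible cyclooxygenase, measured 9.56 FPKM there against 1.16 to 2.32 in the other 7, and Il27, a subunit of interleukin-27, 7.45 against 0.485 to 2.62. Il12b measured 3.45 FPKM there and 0.658 or less elsewhere. Cxcl10 measured 18.6 FPKM against 0.851 to 4.50 in the others numbered 1, and was higher again in those numbered 2 (up to 42.5). Markers of fibroblasts were also highest in this library. Their summed level was 321 and 3.89 FPKM in Ern1f/fLyz2-Cre IL-4, 684 and 5.35 in Ern1f/fLyz2-Cre control, 117 and 11.8 in Ern1f/f IL-4 and 254 and 11.7 in Ern1f/f control. The second highest sum was in Ern1f/fLyz2-Cre IL-4 replicate 1, which had the lowest Il1b, Ptgs2, Il27 and Cxcl10 of its number. Of the 12 fibroblast markers, 10 were highest in Ern1f/fLyz2-Cre control replicate 1, and none was at 0 in all libraries. Monocyte markers were also highest there, at 150 FPKM in sum against 17.2 to 87.2 in the other 7. Neutrophil markers were not, with 62.9 FPKM there against 40.3 to 75.7 elsewhere, and Retnlg was at 0 in all 8. The part of such cells in the cytokine values was not tested, and in whole cultures fewer cells of a type and less RNA per cell cannot be told apart.

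The question of whether IL-4 altered these genes was tested with limma on log2(FPKM + 1) over all 10934 genes, with Benjamini-Hochberg adjustment. Averaged over genotypes, 0 of the 8 tested genes passed an adjusted p of 0.05 (1 had an unadjusted p below 0.05), against 0.841% of all genes. By limma 0 passed within Ern1f/fLyz2-Cre (0.0549% of all genes) and 0 within Ern1f/f (0.0% of all genes), with 0 at an unadjusted p below 0.05 in either. Libraries with the same replicate number deviated together. With the number as a block Tnf and Il1r1 passed for the average over genotypes, 2 of 8 against 12.7% of all genes. Il1r1 is the gene that passed the filter through Ern1f/fLyz2-Cre IL-4, so that count is not read as a result about the genes. In a blocked fit with no filter on low values, 0 of the 10 genes passed by limma, with 2 at an unadjusted p below 0.05. With the block 0 of the 8 genes passed within Ern1f/fLyz2-Cre (3.32% of all genes) or within Ern1f/f (2.12% of all genes), with 4 and 1 at an unadjusted p below 0.05 by limma.

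Tnf fell under IL-4 in the blocked fit, by 0.96 on the log2 scale averaged over genotypes (SE 0.21, limma adjusted p = 0.0321), and was lower in 4 of 4 pairs, as were 23.5% of all genes. Without the block the same difference had an SE of 0.66 and a limma adjusted p of 0.608, and with the block but no filter the limma adjusted p was 0.111. With the block the Tnf difference was -1.38 ± 0.29 (SE) in Ern1f/fLyz2-Cre (limma adjusted p = 0.0600) and -0.54 ± 0.29 in Ern1f/f (limma adjusted p = 0.442). The blocked call for Tnf held when either Ern1f/fLyz2-Cre control library was left out and was lost when any of the other 6 was, with limma adjusted p up to 0.138.

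Il1r1 had an IL-4 difference of 0.48 ± 0.12 (SE) on the log2 scale in the blocked fit (limma adjusted p = 0.0481), and was higher in 4 of 4 pairs, as were 17.0% of all genes. Since it entered the test through the Ern1f/fLyz2-Cre IL-4 libraries in which it was high, the difference is given as a description. In the blocked fit without a filter the limma adjusted p was 0.0554, and without the block, with the filter, 0.233. In the blocked fit the call for Il1r1 was lost on leaving out any of the 6 libraries without which it still passed the filter, with limma adjusted p from 0.0548 to 0.147. The difference is on the log2(FPKM + 1) scale, which understates the change of so low a gene.

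The other 6 genes did not pass in either fit. Without the block, and averaged over genotypes, the IL-4 difference on the log2(FPKM + 1) scale was -1.13 ± 0.78 (SE) for Il1b, -0.78 ± 0.85 for Cxcl2, -0.37 ± 0.76 for Il1a, -0.37 ± 1.15 for Il10, -0.29 ± 0.33 for Cxcl1 and 0.19 ± 0.36 for Il1rn, with limma adjusted p from 0.611 to 0.941. The interval for Il1b ran from -3.05 to 0.79 and that for Il1rn from -0.69 to 1.07, so differences of several fold in Il1b remained within it. Leaving out Ern1f/fLyz2-Cre control replicate 1 turned the IL-4 difference of Il1a to 0.47 and brought that of Il1b to -0.19. Leaving out Ern1f/fLyz2-Cre control replicate 2 instead gave -1.21 for Il1a and -2.08 for Il1b, the second with a limma adjusted p of 0.0384, in a fit where the 1 library left in that group is assumed to vary like those of the other groups.

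**Figure D3:**
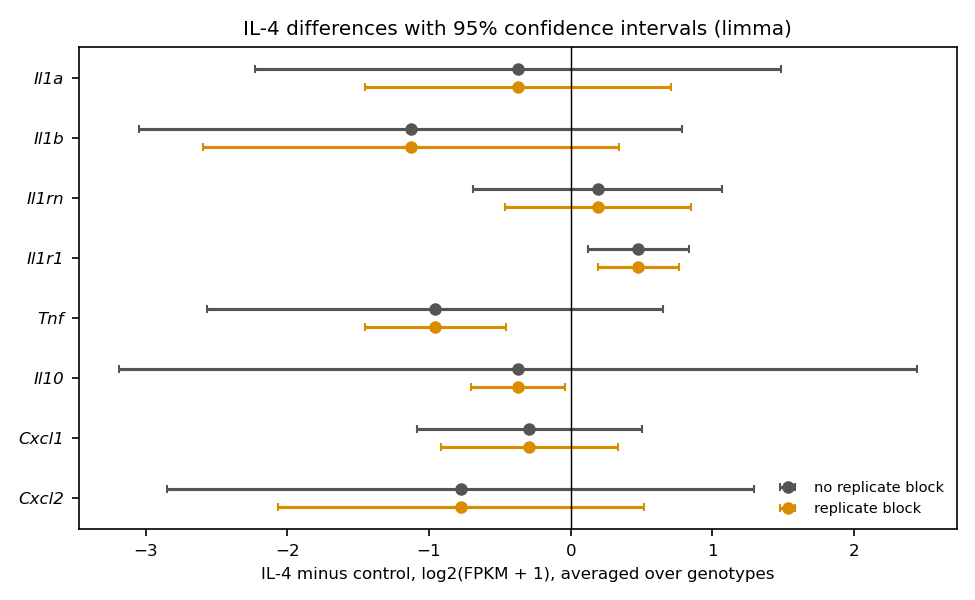
Points are IL-4 minus control differences on the log2(FPKM + 1) scale, averaged over genotypes, for the 8 tested genes, and bars are 95% confidence intervals from limma without and with the replicate number as a block. In the blocked fit the intervals of Tnf (-0.957), Il1r1 (0.476) and Il10 (-0.373) lie to one side of 0, and only the first 2 passed the adjustment over all genes.

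The IL-4 differences of Il1b and Cxcl2 in Ern1f/fLyz2-Cre were larger in the first replicate. For Il1b the IL-4 to control ratio was 0.0357 in replicate 1 and 0.709 in replicate 2 of Ern1f/fLyz2-Cre, and 1.10 and 0.996 in Ern1f/f. For Cxcl2 it was 0.0466 and 0.822 in Ern1f/fLyz2-Cre, and 2.60 and 0.779 in Ern1f/f. Across the 8 tested genes the median IL-4 difference was -1.02 on the log2 scale in Ern1f/fLyz2-Cre, with 6 lower, and 0.30 in Ern1f/f, with 6 higher. The medians over all genes tested were -0.02 and -0.04, with 53.1% lower in Ern1f/fLyz2-Cre and 41.9% higher in Ern1f/f. By replicate, the median of the 8 genes in Ern1f/fLyz2-Cre was -1.83 in the first pair and -0.15 in the second, and in Ern1f/f it was 0.21 and 0.15.

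Between genotypes, which the series compares to ask what the loss of IRE1alpha does, 0 of the 8 genes passed in IL-4 cells, in control cells, averaged over treatments or as an interaction by limma, with or without the block, and 0 of them had an unadjusted p below 0.05 without it. The share of all genes called was 0.0% in each of these comparisons without the block. With the block it was 0.00915% in IL-4 cells and 0.0% in the others, and of the 8 genes Cxcl1 in control cells had an unadjusted limma p below 0.05 (0.0453, adjusted 1).

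In control cells the 2 replicates gave opposite answers for several genes, a pattern whose share over all genes was not counted. Ern1f/fLyz2-Cre was higher for 7 of the 8 genes in replicate 1, against 66.9% of all genes tested. In replicate 2 it was lower for 5 of the 8, against 62.4% of all genes tested. Il1b in Ern1f/fLyz2-Cre was 8.84 times its Ern1f/f level in replicate 1 and 0.661 times in replicate 2. Cxcl2 was 12.3 and 0.767 times, Tnf 2.20 and 0.850 times, Il1rn 1.49 and 0.599 times and Il1r1 1.24 and 0.779 times. Il10 ran the other way, at 0.898 and 1.55 times. Il1a was the higher in Ern1f/fLyz2-Cre in both, at 6.79 and 1.10 times, and so was Cxcl1, at 5.77 and 1.35 times. The fitted genotype difference in control cells was 1.24 ± 1.11 (SE) for Il1b, 1.35 ± 1.20 for Cxcl2, 1.19 ± 1.07 for Il1a and 0.91 ± 0.46 for Cxcl1 on the log2 scale. Without Ern1f/fLyz2-Cre control replicate 1 the difference of Il1b was -0.65, and -0.54 with the block, so its direction came from that library. That of Il1a was then -0.49 without the block and -0.08 with it. Over libraries left out, that of Cxcl1 ranged from 0.593 to 1.23 without the block and from 0.21 to 1.613 with it.

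In IL-4 cells the replicates differed less. Il1b in Ern1f/fLyz2-Cre was 0.287 and 0.470 times its Ern1f/f level, and this was the lower genotype in both numbers also for Il1a (0.486 and 0.941 times), Il1rn (0.826 and 0.803), Tnf (0.644 and 0.821), Cxcl1 (0.448 and 0.933) and Cxcl2 (0.220 and 0.810). Il10 (1.42 and 1.38 times) and Il1r1 (1.08 and 1.12 times) were higher in Ern1f/fLyz2-Cre in both. In each number 6 of the 8 genes were lower in Ern1f/fLyz2-Cre, against 55.6% of all genes in replicate 1 and 32.7% in replicate 2. The share of all genes lower in both numbers was not counted. The limma differences were -1.13 ± 1.11 (SE) for Il1b and 0.33 ± 1.63 for Il10, and none of the 8 passed. No gene of the 8 separated 4 Ern1f/fLyz2-Cre libraries from 4 Ern1f/f libraries, as 0.192% of all genes did upwards and 0.146% downwards.

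For the interaction, the IL-4 difference in Ern1f/fLyz2-Cre minus that in Ern1f/f, the intervals were wide. It was -2.38 for Il1b (95% interval -6.21 to 1.46), -2.24 for Cxcl2 (-6.38 to 1.91), -1.58 for Il1a (-5.29 to 2.13), -1.19 for Cxcl1 (-2.77 to 0.40) and -0.84 for Tnf (-4.06 to 2.38). Each limma adjusted p was 1. Cxcl1 was lower with IL-4 in both Ern1f/fLyz2-Cre pairs, at 0.122 and 0.956 of control, and higher in both Ern1f/f pairs, at 1.57 and 1.38, a pattern found in 0.887% of all genes tested. With the block and without Ern1f/fLyz2-Cre control replicate 2, the interaction of Il1b was -4.15 with a limma adjusted p of 0.0395, and its genotype difference in control cells was 3.02 with a limma adjusted p of 0.0326. In that fit the Ern1f/fLyz2-Cre control group is the 1 library with 58.7 FPKM of Il1b, and its spread is taken from the other groups, so these p-values hold no replicate check of that library.

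Replicate numbers were compared in a fit that groups the libraries by the genotype field of the labels, so its counts are not ranked against those by title. In that fit 2 of the 8 genes passed by limma for IL-4 averaged over the field's genotypes, as did 2919 of all 10934 genes. With replicate 2 set against replicate 1 within treatments, 4 of the 8 genes passed by limma, against 47.9% of all genes, a share close to theirs. The replicate number and the genotype field of the labels divide the libraries in the same way, so these cannot be told apart in this contrast. Il10 was 2.80 ± 0.15 (SE) higher on the log2 scale in the libraries numbered 2 (limma adjusted p = 9.54e-06) and Tnf 1.52 ± 0.23 higher (limma adjusted p = 0.00144). Il1rn was 0.53 ± 0.18 higher (limma adjusted p = 0.0403) and Il1a, lower in 4 of 4 pairs as were 36.0% of all genes, was -1.46 ± 0.44 (limma adjusted p = 0.0288). As ratios of mean FPKM, replicate 2 over replicate 1 was 13.4 for Il10, 2.75 for Tnf and 0.146 for Il1a. Without Ern1f/fLyz2-Cre control replicate 1 these ratios were 13.7, 4.03 and 0.345. For Cxcl2 the difference was 1.56 (limma adjusted p = 0.0716) and for Il1b -1.11 (limma adjusted p = 0.175). The summed fibroblast markers ran the same way as Il1a, at 3.89 to 11.8 FPKM in libraries numbered 2 against 117 to 684 in those numbered 1, and their part in these differences was not tested.

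Ratios within a library do not depend on its scaling. Il1rn over Il1b, antagonist over ligand, was 4.2 and 8.02 in Ern1f/fLyz2-Cre IL-4, 0.258 and 2.89 in Ern1f/fLyz2-Cre control, 1.46 and 4.70 in Ern1f/f IL-4 and 1.54 and 3.19 in Ern1f/f control. The ratio was highest in Ern1f/fLyz2-Cre IL-4 within each replicate number, and Ern1f/fLyz2-Cre control replicate 1 was the only library with more Il1b than Il1rn. Il10 over Tnf was 0.157 and 0.477 in Ern1f/fLyz2-Cre IL-4, 0.0384 and 0.428 in Ern1f/fLyz2-Cre control, 0.0714 and 0.284 in Ern1f/f IL-4 and 0.0940 and 0.235 in Ern1f/f control. It was above 0.2 in all libraries numbered 2 and below it in all numbered 1. The ratios were not tested between groups.

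**Figure D4:**
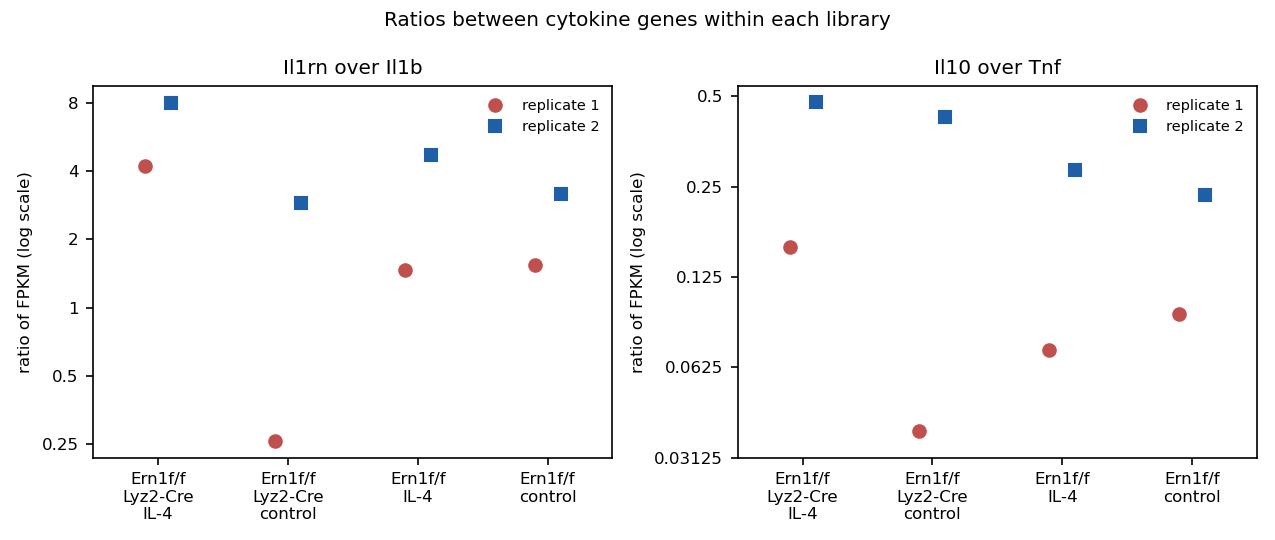
The left panel plots Il1rn over Il1b and the right panel Il10 over Tnf, as ratios of FPKM on log scales, for both replicates of the 4 groups. Il1rn over Il1b is lowest in Ern1f/fLyz2-Cre control replicate 1 (0.258), and Il10 over Tnf separates by replicate number.

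Summed over the 10 genes, the level was 22.6 and 75.7 FPKM in Ern1f/fLyz2-Cre IL-4, 149 and 96.9 in Ern1f/fLyz2-Cre control, 39.5 and 88.5 in Ern1f/f IL-4 and 36.0 and 109 in Ern1f/f control. Il1b made up 39.5% of the sum in Ern1f/fLyz2-Cre control replicate 1 and 3.13% to 18.5% in the other 7. Tnf made up 18.7% there and 25.4% to 49.3% elsewhere.

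Genes with the most similar profiles over the 8 libraries were sought by the mean absolute difference of centred log2(FPKM + 1) values. For Il1b they were Ptgs2 (0.47), Il27 (0.57), Rps4y2 (0.57), Nlrp3 (0.59), the inflammasome sensor, and Gas1 (0.61), all highest in Ern1f/fLyz2-Cre control replicate 1, and Il1a was nearer than any of them at 0.45. For Cxcl2 they were Nos2 (0.41), the inducible nitric oxide synthase, Ccl4, Marcksl1, Irg1 and Slco3a1. For Tnf they included Slco3a1 (0.21), Marcksl1, Fxyd2 and Serp1. For Il10 they were Cp (0.12), which encodes ceruloplasmin, Phf11a, Zbp1, Slfn1 and Slc35g1. For Il1rn they were Tnfsf15 (0.18), Cd86, Nod1, Tob1 and Ugcg.

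Around these genes, 9 lists of the same pathways held 107 tested entries, counted over the lists. Without the block limma called 2 of these for IL-4 averaged over genotypes, against 0.841% of all genes: Il1rl2, the interleukin-36 receptor, rose by 1.37 ± 0.12 (SE, log2, adjusted p = 0.0119) and Tlr2, a Toll-like receptor, fell by 1.59 ± 0.22 (adjusted p = 0.0458). With the block 10 rose and 18 fell, against 5.88% of all genes higher and 6.86% lower. Between genotypes and for the interaction 0 list genes passed in either fit by limma.

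Il1rl2 measured 5.36 and 6.07 FPKM in Ern1f/fLyz2-Cre IL-4, 2.21 and 1.42 in Ern1f/fLyz2-Cre control, 6.55 and 7.44 in Ern1f/f IL-4 and 1.93 and 1.78 in Ern1f/f control. All IL-4 libraries were above all controls, in both numbers and genotypes, as for 6.98% of all genes tested. Il1rl2 is named because limma called it for IL-4 in these same libraries, so this order is no separate support. In the interleukin-1 family list 2 of 6 tested genes rose with the block, the other being Il1rl1, the interleukin-33 receptor (0.42 ± 0.11), and 0 fell (median of the list 0.13, all genes -0.03). Of 10 inflammasome genes 1 rose, Casp1 (0.35 ± 0.08), which encodes the caspase that cleaves interleukin-1 beta, and 1 fell, Nlrc4 (-0.33 ± 0.08).

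Of 11 genes of interleukin-1 and Toll receptor signalling 2 fell with the block, Irak3 (-1.07 ± 0.10), which encodes an inhibitor of the pathway, and Irak2 (-0.74 ± 0.12), and 0 rose (median -0.11). Irak3 measured 5.12 and 29.7 FPKM in Ern1f/fLyz2-Cre IL-4, 13.7 and 54.9 in Ern1f/fLyz2-Cre control, 5.35 and 26.6 in Ern1f/f IL-4 and 13.5 and 53.0 in Ern1f/f control, nearly the same in the 2 genotypes. Of 16 NF-kappaB genes 4 fell, Nfkbiz (-1.52 ± 0.18), Bcl3 (-0.66 ± 0.15), Tnip1 (-0.65 ± 0.09) and Nfkbia (-0.51 ± 0.10), which encode regulators of the pathway that it also induces, and 1 rose, Rel (0.50 ± 0.11), which encodes a subunit of the factor (median of the list -0.10). Of 14 genes of TNF receptors and signalling 1 rose, Rhbdf2 (0.43 ± 0.10), and 0 fell (median -0.03).

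Of 8 genes of interleukin-6 and interleukin-10 reception with the block, 1 rose, Il6st (1.66 ± 0.23), the shared receptor chain gp130, and 3 fell, Socs3 (-1.11 ± 0.12), a feedback inhibitor of the pathway, Il6ra (-0.55 ± 0.10) and Il10ra (-0.47 ± 0.09) (median -0.21). Of 5 tested genes of a list of other CXC chemokines and their receptor, 1 rose, Pf4 (0.56 ± 0.14), a platelet and macrophage chemokine, and 0 fell. Of 11 genes of cytokine mRNA decay 1 rose, Zfp36l1 (0.50 ± 0.10), and 1 fell, Dusp1 (-0.37 ± 0.09). Of 26 other inflammatory genes 2 rose, among them the chemokine Ccl7 (1.62 ± 0.29), and 7 fell, by 1.10 to 1.67, among them Cd14, the co-receptor for bacterial lipopolysaccharide, Lcn2, Tlr2, Saa3 and Ebi3 (median of the list -0.30).

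Ern1f/fLyz2-Cre control replicate 1, the library that stood apart for Il1b, was 2-fold above the rest of its number for 7 of the 107 list entries (6.54%), where the background was 1.14%. It was so for 0 of 10 inflammasome genes, 0 of 11 genes of interleukin-1 and Toll receptor signalling, 0 of 16 NF-kappaB genes, 0 of 14 TNF signalling genes and 0 of 11 mRNA decay genes, lists too short to tell such a count from the background. The 7 were 2 of 5 genes of the CXC chemokine list (Cxcl3 and Cxcl10), 4 of 26 other inflammatory genes (Ptgs2, Ccl3, Il27 and Lcn2) and Socs3. Below the filter the same held for Cxcl5, Cxcl9, Il12a, Il12b and Csf3.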

How the data were processed

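The 8 deposited tables hold 1 library each, with FPKM values per gene and their confidence interval made by the authors (23838 rows, 23354 symbols). The tools named in the submitters' processing notes are TopHat (1.4.1) and Cufflinks (1.3.0), on mm10; the gene models and strand setting are not given in the sources used here. Rows sharing a symbol were summed. Read counts were not used. The half-width of the deposited interval implies the fragments behind each value, and 76.0% to 77.8% of genes under 60 fragments came within 0.02 of a whole number; intervals cover counting error only.

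Genes were kept when 2 or more libraries held 1 FPKM or above (10934 genes), and log2(FPKM + 1) was modelled by limma (3.58.1, R version 4.3.3) with a mean for each of the 4 titled groups, a trended variance prior, two-sided tests, and Benjamini-Hochberg adjustment over all genes in each of 7 comparisons and a threshold of 0.05. Differences run IL-4 minus control and Ern1f/fLyz2-Cre minus Ern1f/f. Replicate 2 against replicate 1 was taken from the fit that uses the genotype field of the labels. Replicate numbers were checked as a pairing: differences of replicate 2 minus 1 correlated between each of 6 pairs of groups across genes (r = 0.688 to 0.827). Libraries with the same number thus deviated together. The genotype field of the labels divides the libraries in the same way, so this check cannot tell a pairing from that field. The blocked fit is given where it changes a call or a count.

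The 10 genes and the 17 gene lists were chosen with earlier results of these data known. All 10 genes are named, with list genes called in a fit (at most 6 per list and comparison, by smallest p) and the 5 nearest profiles, of which 1 gene is not reported here; list genes named for standing apart in 1 library were chosen after their values were seen. The fits were tested on simulated data. Alternatives were the pseudocount, filter, scaling, block, trend, groups in the fit, status, genotype field, each library left out and, chosen after seeing the data, no filter with the block. Promoters came from RefSeq and overlaps from GENCODE M21. Figures used matplotlib 3.10.9 in Python 3.11.15.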

Additional observations from a re-analysis of the deposited data

Results flagged for a closer look

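The IL-4 differences of 2 genes ran in opposite directions in the 2 genotypes, in every pair of libraries with the same number. For Cxcl1 both Ern1f/fLyz2-Cre pairs were lower with IL-4 and both Ern1f/f pairs higher, and the mean difference of the Ern1f/fLyz2-Cre pairs minus that of the Ern1f/f pairs was -1.186 on the log2(FPKM + 1) scale. The limma interaction for Cxcl1 had an adjusted p of 1 without and with the block, and with 1 library left out it ranged from -1.713 to -0.658 without the block and from -1.887 to -0.484 with it. The second Ern1f/fLyz2-Cre pair differed little, at 2.06 FPKM with IL-4 and 2.15 in control, and their counting intervals overlap. For Il6 the corresponding value was -1.705, and Il6 was tested only without the filter, where the limma interaction had an unadjusted p of 0.0318 and an adjusted p of 1 (0.0451 and 1 with the block). In Il6 the Ern1f/fLyz2-Cre IL-4 library numbered 1 rests on 1 fragment and Ern1f/f control replicate 1 was listed at 0.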

How the results depend on the processing

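Without the block 0 of the 8 genes were called in each of the 7 comparisons, and this count was 0 under the other pseudocounts, no filter, upper-quartile scaling, no trend, only the compared groups, and status OK in every library. With the replicate number as a block 2 genes were called for IL-4 averaged over genotypes and 0 in the other 6 comparisons, so the block changed no other call. With the block and no filter, an alternative chosen after seeing the data, 0 of the 10 genes were called in each comparison, and over all genes 657 were called for IL-4 averaged, 2 in Ern1f/fLyz2-Cre and 3 in Ern1f/f. With the genotype field of the labels in place of the titles, 1 was called for IL-4 in Ern1f/fLyz2-Cre, 1 in Ern1f/f and 2 averaged, and 3, 3 and 4 for genotype in IL-4 cells, in control cells and averaged, a field that follows the replicate number. Leaving out 1 library, with or without the block, the number called ranged from 0 to 5 for IL-4 in Ern1f/fLyz2-Cre and averaged, and from 0 to 1 for genotype in control cells and the interaction. All 5 calls came with the block and without Ern1f/fLyz2-Cre control replicate 2, when Il1a, Il1b, Tnf, Cxcl1 and Cxcl2 passed, and without Ern1f/fLyz2-Cre control replicate 1 the blocked fit called 3 (Il1rn, Tnf and Il10). The cause was not tested. Over all genes tested, IL-4 averaged called 92 without the block and 1393 with it, IL-4 in Ern1f/fLyz2-Cre 6 and 363, IL-4 in Ern1f/f 0 and 232, and with upper-quartile scaling the last 2 were 13 and 11. With the genotype field the 3 IL-4 counts over all genes were 2919, 1273 and 2264, and with 1 library left out and no block 3 to 49, 0 to 1 and 0 to 1. With the block these ranges were 491 to 1226, 2 to 339 and 6 to 278, lowest without Ern1f/fLyz2-Cre IL-4 replicate 1, Ern1f/fLyz2-Cre IL-4 replicate 2 and Ern1f/f control replicate 1.

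Of 496 alternatives for single genes, 460 kept direction and side of the threshold, 15 came to pass it, and 21 changed direction, all 21 with a library left out. Over libraries left out, the IL-4 difference averaged over genotypes ranged from -1.214 to 0.466 for Il1a (-1.008 to 0.26 with the block), -0.08 to 0.462 for Il1rn (-0.186 to 0.568 with it), -1.203 to 0.456 for Il10 and, with the block, -0.641 to 0.06 for Cxcl1, and that of Tnf in Ern1f/f from -1.54 to 0.469. The genotype difference in control cells ranged from -0.488 to 2.87 for Il1a (-0.077 to 2.458 with the block), -0.647 to 3.133 for Il1b (-0.535 to 3.021 with it) and -0.046 to 2.742 for Cxcl2 (-0.107 to 2.802 with it), and the interaction from -3.256 to 0.103 for Il1a and -1.848 to 0.162 for Tnf. Il1r2 and Il6 entered only the fits with no filter.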
